A study of Homo sapiens with 6 samples.

Results

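Promoters of long noncoding RNA (lncRNA) genes were examined in ATAC-seq peak summits of MDA-MB-231 cells. ATAC-seq uses a transposase that inserts sequencing adapters into open DNA, and a summit is the position of the strongest signal in a peak. A lncRNA gene was included when a summit lay within 1 kb of one of its annotated start sites and more than 2 kb from every protein-coding start site, on chromosomes 1 to 22 of hg19. Of 18229 annotated lncRNA genes, 2042 met this rule in at least 1 of the 6 libraries. They fell into 1844 loci, because neighbouring genes can share a summit, and genes that shared one are named together. Another 2678 lncRNA genes had a summit within 2 kb of a protein-coding start site, of which 117 were also among the 2042. The same rule of 1 kb gave 12141 of 19229 protein-coding genes, which served as the comparison.

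The parental MDA-MB-231 cells are an established human triple-negative breast cancer line, and the SAP30-KO1 cells were derived from it by CRISPR knockout of SAP30. SAP30 belongs to the SIN3 corepressor, a complex that carries histone deacetylases. Each genotype had 3 libraries, and the knockout line was a mixture of several selected knockout cells. The comparison asked how accessibility differed without SAP30. The promoter of SAP30 had a summit in all 6 libraries, which does not test the knockout, because ATAC-seq does not read the protein. Among promoters that mark the cell type, those of VIM, CD44, EGFR and CAV1 had a summit in all 6 libraries, ESR1 and PGR in 1 each, and CDH1 in 0. EPCAM, an epithelial gene, had one in 5 and ERBB2 in 4.

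Long noncoding RNAs are transcribed mostly by RNA polymerase II from promoters that resemble those of protein-coding genes, and many act in the nucleus or are made only in particular tissues. Some are hosts whose introns release small nucleolar RNAs or whose hairpins yield microRNAs. Others lie antisense to a gene or share a promoter with it in the opposite direction.

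Sequences of 9 promoters that carry the results are given first. Each is the 300 bases around the strongest summit, read 5′ to 3′ on the strand of the gene. The windows of LINC01411, ENSG00000290078 and NAMA do not reach the nearest annotated start, which lies 198, 250 and 870 bp upstream of the summit. Capitals mark matches, on either strand, to any of 9 short motifs. TGANTCA was searched for AP-1, the factor made of FOS and JUN, with N for any base. TATAAA stood for the TATA box, CCAAT for the box named by those letters, and GGGCGG for the GC box bound by SP1. ETS factors were represented by CCGGAAG, TEAD factors by ACATTCC, the E-box by CACGTG and the cyclic AMP response element by TGACGTCA. NRF1 was represented by the core TGCGCA. Matches of one motif may overlap those of another.

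The first 4 promoters had a rank difference between the genotypes although a summit was present in most or all libraries. They are BHLHE40-AS1 at chr3:4947919-4948218 (minus strand), TERC at chr3:169482669-169482968 (minus), LINC01411 at chr5:173930867-173931166 (plus) and SNHG29 at chr17:16342056-16342355 (plus). BHLHE40-AS1 had no match in this window, TERC had a TATA match ahead of its start at base 121, LINC01411 had an AP-1 match near the summit, and SNHG29 had CCAAT matches only.
BHLHE40-AS1: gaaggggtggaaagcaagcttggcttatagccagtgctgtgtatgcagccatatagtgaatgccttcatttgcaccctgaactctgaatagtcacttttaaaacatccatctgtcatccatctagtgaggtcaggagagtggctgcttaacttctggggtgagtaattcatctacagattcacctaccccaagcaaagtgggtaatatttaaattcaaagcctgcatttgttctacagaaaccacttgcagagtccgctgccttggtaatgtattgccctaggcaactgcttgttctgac
TERC: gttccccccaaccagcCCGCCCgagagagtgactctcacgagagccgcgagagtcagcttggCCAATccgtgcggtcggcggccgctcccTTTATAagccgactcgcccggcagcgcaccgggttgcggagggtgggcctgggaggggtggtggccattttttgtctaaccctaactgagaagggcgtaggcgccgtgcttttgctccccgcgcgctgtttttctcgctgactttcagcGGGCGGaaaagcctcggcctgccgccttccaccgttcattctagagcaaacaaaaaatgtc
LINC01411: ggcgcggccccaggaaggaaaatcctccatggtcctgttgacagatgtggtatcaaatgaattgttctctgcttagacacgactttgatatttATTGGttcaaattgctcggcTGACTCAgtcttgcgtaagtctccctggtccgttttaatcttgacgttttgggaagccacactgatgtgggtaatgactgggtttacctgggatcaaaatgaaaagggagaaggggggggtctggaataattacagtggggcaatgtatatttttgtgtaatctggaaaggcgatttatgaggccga
SNHG29: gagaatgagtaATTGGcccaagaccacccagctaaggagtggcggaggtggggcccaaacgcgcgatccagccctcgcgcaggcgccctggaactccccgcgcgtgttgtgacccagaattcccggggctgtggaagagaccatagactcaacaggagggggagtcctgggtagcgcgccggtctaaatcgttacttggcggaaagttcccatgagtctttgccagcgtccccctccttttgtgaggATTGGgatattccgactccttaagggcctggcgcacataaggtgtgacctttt

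The next 3 had a summit in 1 genotype only. They are ENSG00000290078 at chr11:110199234-110199533 (plus), LINC01504 at chr9:74920151-74920450 (plus) and NAMA at chr9:102127735-102128034 (minus). LINC01504 had an AP-1 match beside an E-box at its summit, and NAMA had 2 AP-1 matches.
ENSG00000290078: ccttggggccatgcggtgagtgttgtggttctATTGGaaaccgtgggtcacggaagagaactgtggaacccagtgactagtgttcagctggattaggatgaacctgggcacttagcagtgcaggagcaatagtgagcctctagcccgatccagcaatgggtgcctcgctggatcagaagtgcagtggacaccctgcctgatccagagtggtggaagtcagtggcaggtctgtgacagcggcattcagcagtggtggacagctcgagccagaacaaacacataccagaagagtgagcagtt
LINC01504: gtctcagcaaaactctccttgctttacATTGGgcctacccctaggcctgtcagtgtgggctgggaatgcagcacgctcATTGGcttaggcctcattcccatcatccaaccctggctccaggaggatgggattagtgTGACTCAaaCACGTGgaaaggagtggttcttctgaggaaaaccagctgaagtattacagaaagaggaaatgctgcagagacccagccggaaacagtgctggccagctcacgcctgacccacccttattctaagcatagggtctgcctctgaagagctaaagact
NAMA: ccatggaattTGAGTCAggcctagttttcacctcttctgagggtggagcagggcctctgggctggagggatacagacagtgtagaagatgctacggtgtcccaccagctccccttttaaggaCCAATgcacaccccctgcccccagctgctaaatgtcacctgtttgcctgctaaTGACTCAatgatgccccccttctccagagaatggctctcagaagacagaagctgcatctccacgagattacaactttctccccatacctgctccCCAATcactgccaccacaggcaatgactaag

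The last pair ranked high in every library, CHASERR at chr15:93425674-93425973 (plus) and MIR4458HG at chr5:8457600-8457899 (plus). Both are rich in CpG, with 35 and 28 CpG dinucleotides in 300 bases, against 1 in the window of BHLHE40-AS1.
CHASERR: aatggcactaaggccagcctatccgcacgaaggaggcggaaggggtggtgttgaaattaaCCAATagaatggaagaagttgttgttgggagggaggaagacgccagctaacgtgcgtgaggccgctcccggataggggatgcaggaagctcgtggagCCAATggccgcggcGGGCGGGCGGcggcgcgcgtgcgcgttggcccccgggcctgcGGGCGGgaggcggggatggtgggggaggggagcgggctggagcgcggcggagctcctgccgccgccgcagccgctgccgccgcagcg
MIR4458HG: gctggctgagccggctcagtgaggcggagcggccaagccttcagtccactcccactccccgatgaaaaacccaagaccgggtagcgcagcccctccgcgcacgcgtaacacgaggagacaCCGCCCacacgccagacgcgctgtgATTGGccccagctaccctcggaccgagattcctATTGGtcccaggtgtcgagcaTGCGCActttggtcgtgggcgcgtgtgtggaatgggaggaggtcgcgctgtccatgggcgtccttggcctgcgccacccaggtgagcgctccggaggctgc

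The promoters were first counted in each library. The number of lncRNA genes with a promoter summit was 1422, 1266 and 1348 in parental and 1159, 1531 and 1281 in SAP30-KO1 libraries. The ranges overlapped, and the means of 1345 ± 78.0 and 1324 ± 190 (SD, n = 3 each) differed by less than the spread between replicates. The longest list, of 40650 summits, had the most lncRNA genes and the shortest, of 29762, the fewest. As a share of all summits, lncRNA promoters took 3.89%, 4.13% and 4.01% in parental libraries and 3.80%, 3.86% and 3.80% in SAP30-KO1. Every SAP30-KO1 library was therefore below every parental library, with a difference of -0.194 percentage points between the means (4.01% ± 0.120 against 3.82% ± 0.0345, SD, n = 3). This share was added after the values were seen. The shares at protein-coding promoters (29.6% ± 0.894 against 29.8% ± 1.63), at lncRNA promoters near protein-coding starts (6.53% ± 0.226 against 6.62% ± 0.433) and farther than 2 kb from any start (57.8% ± 1.01 against 57.8% ± 1.44, SD, n = 3) overlapped between the genotypes. Per 100 summits at protein-coding promoters there were 13.6 at lncRNA promoters in each parental library and 12.1, 13.7 and 12.8 in SAP30-KO1, which overlapped.

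**Figure D1:**
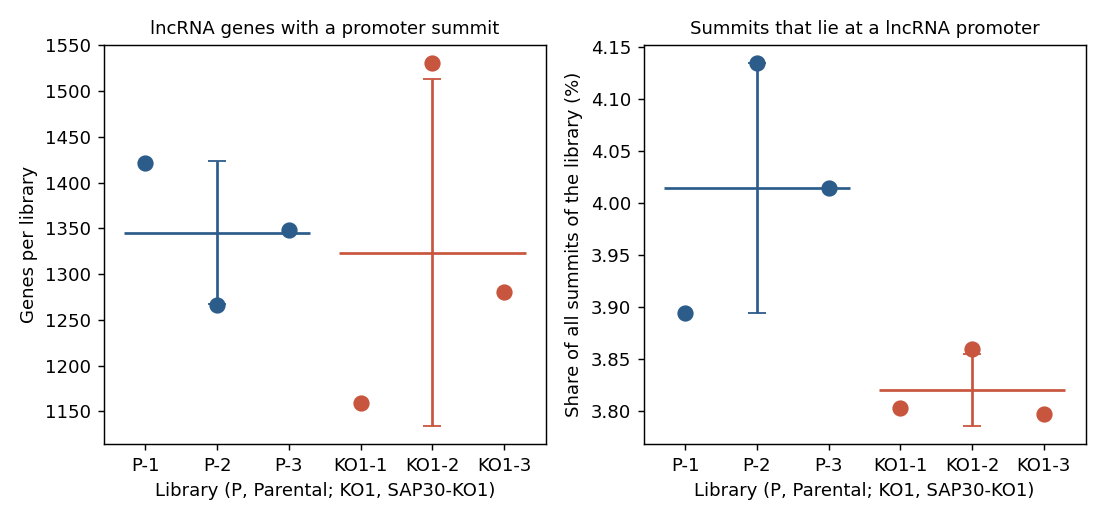
Left, number of lncRNA genes with a promoter summit in each library; right, share of all summits of the library that lie at a lncRNA promoter, in percent. Points are libraries, lines are group means and bars are SD (n = 3), and the axes do not start at 0. The counts overlap between the genotypes, while the 3 SAP30-KO1 shares, from 3.80% to 3.86%, lie below the parental shares, from 3.89% to 4.13%.

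Accessible lncRNA promoters were found in fewer libraries than protein-coding ones. A summit was present in all 6 libraries at 765 of the 2042 lncRNA promoters (37.5%) and at 6739 of the 12141 protein-coding promoters (55.5%), and in 1 library alone at 400 (19.6%) and 1148 (9.46%). In the single libraries, 56.8% to 74.98% of the lncRNA promoters and 73.9% to 86.5% of the protein-coding promoters had a summit, and the lncRNA share was the lower one in 6 of 6 libraries. Strength was compared as the percentile rank of a gene's best summit within the whole list of its library, from 0 to 100, with 0 for no summit. In a population of cells, fewer cells with an open site and less opening per cell cannot be told apart in this measure. Among promoters with a summit in all 6 libraries the median of the mean rank was 69.9 for lncRNA genes and 71.4 for protein-coding genes. lncRNA genes near protein-coding starts, with a summit in all 6 libraries at 53.3%, were close to the protein-coding genes in this count. Their summits lie near protein-coding starts by definition and can be the same summits, so this likeness is not a separate result.

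**Figure D2:**
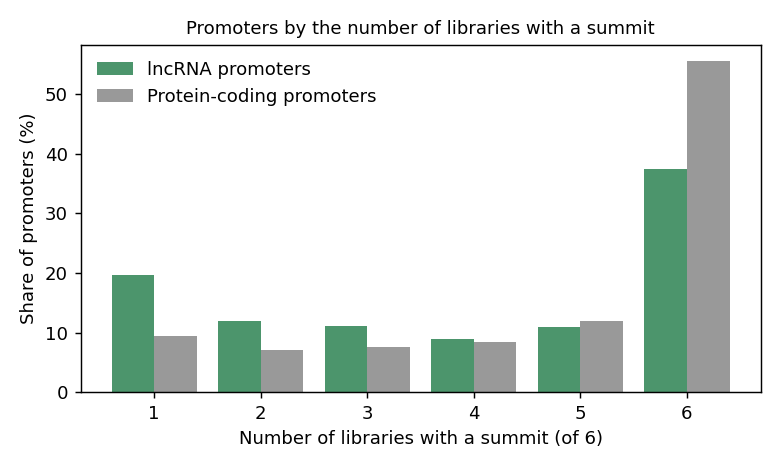
Share of lncRNA promoters (2042) and protein-coding promoters (12141), in percent, by the number of the 6 libraries with a summit within 1 kb of a start site. Bars at 6 libraries stand at 37.5% and 55.5%, and bars at 1 library at 19.6% and 9.46%.

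The place of the summit and the sequence around it also differed between the classes. The strongest summit lay at a median of 202 bp from the nearest start site of a lncRNA gene and 116 bp from that of a protein-coding gene, and 49.4% and 70.2% lay within 200 bp. Of the lncRNA summits, 53.8% were upstream of the start. In the 300 bases around the summit the median GC content was 54.7% at lncRNA promoters, 66.3% at protein-coding promoters and 45.3% at 35496 distal summits. Distal summits were those over 2 kb from the annotated transcript starts of genes of any type. Where neighbouring ones lay no more than 1 kb apart, the first by position was kept. Promoter windows were instead centred on the strongest summit, so the choice of summit differed between the classes. A window was called CpG-rich when its GC content was at least 50% and its CpG count at least 0.6 of that given by its C and G content. By this measure 654 lncRNA promoters (32.0%), 78.5% of protein-coding promoters and 2.49% of distal summits were CpG-rich. lncRNA promoters thus lay between the other 2 classes.

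The motifs gave a like order. AP-1 was matched in 25.3% of lncRNA windows, 7.67% of protein-coding windows and 32.6% of distal windows of the same length. The GC box was matched in 33.7%, 65.9% and 7.22%, the ETS motif in 6.71%, 15.2% and 1.41%, the NRF1 core in 5.48%, 10.4% and 1.23%, and TATAAA in 9.16%, 3.40% and 18.3%. CCAAT was matched at nearly the same share in all classes, at 31.7%, 31.5% and 33.7%. These are letter matches, and the motifs of CpG-rich and AT-rich letters move with base composition.

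CpG-rich lncRNA promoters were the more constant ones. Of the 654, 52.1% had a summit in all 6 libraries and 7.65% in 1 library, against 30.5% and 25.2% of the 1388 others. Their summits were also closer to the start, with 65.4% within 200 bp against 41.8%. CpG-rich protein-coding promoters had a summit in all 6 libraries at 58.7% and the other protein-coding promoters at 43.95%. CpG-rich genes made up 37.0% to 38.1% of the lncRNA genes of a parental library and 36.4% to 39.1% of those of a SAP30-KO1 library, so these shares overlapped.

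**Figure D3:**
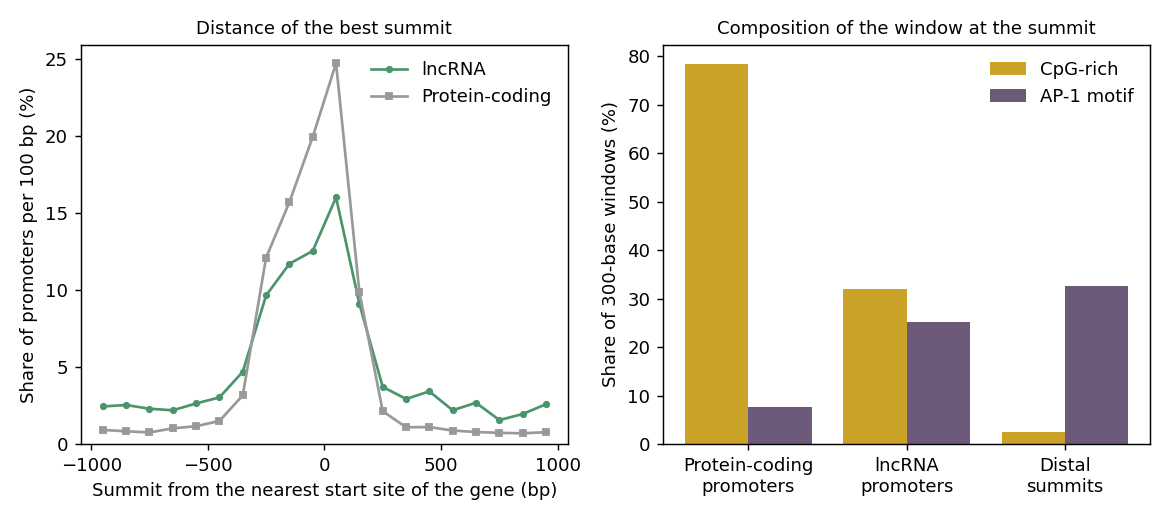
Left, distance in bp from the nearest annotated start site to the best summit, as the share of lncRNA and protein-coding promoters per 100 bp. Right, share of 300-base windows that are CpG-rich or hold an AP-1 match. lncRNA promoters lie between protein-coding promoters and distal summits, with 32.0% CpG-rich and 25.3% with AP-1.

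The strongest lncRNA promoters were taken as the 10 with the highest mean rank over all libraries. The highest mean rank belonged to ENSG00000289474, a gene inside an intron of KIF5C, whose rank rounded to 100 in every library with scores (−log10 of the q value) from 52.5 to 64.0. LINC02236 on 5p followed, with ranks from 99.9 upward. ROCK1P1, a pseudogene of the kinase ROCK1, ranked 99.8, 99.8 and 99.2 in the parental libraries against 99.9, 99.8 and 99.8 in SAP30-KO1. GIRGL, a lncRNA named for regulation of glutaminase under glutamine shortage, ranked 99.7, 99.7 and 99.5 against 99.4, 99.96 and 99.5. The shared promoter of MIR4458HG, LINC02226 and ENSG00000249159, which serves genes in both directions, ranked 99.8, 99.9 and 98.7 against 99.8, 99.9 and 99.5. The other genes of the highest 10 were ENSG00000289462 on 5q and the pair ENSG00000272769 and ENSG00000286833 on 2q, all between 98.6 and 99.9. For each of these the groups overlapped and differed by less than 1 rank unit. A mean rank this close to the ceiling of 100 leaves little room for a difference, so these genes do not test one. The best summit of ENSG00000289474 lay 238 bp downstream of the annotated start, beyond the other end of this short gene. LINC02236, GIRGL and ROCK1P1 had their best summits at 899, 652 and -713 bp from the nearest annotated start. The windows of these 4 genes, unlike those of MIR4458HG and ENSG00000289462, were not CpG-rich. The 75 bases centred on the best summit of every gene named here occurred once in chromosomes 1 to 22, and the summit of 0 of the 2042 promoters lay in sequence similar to the mitochondrial genome.

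Promoters with a summit in all 3 libraries of one genotype and in none of the other were then sought. There were 27 Parental-only lncRNA promoters, or 1.32%, where 0.501% of all 14183 promoters were Parental-only, and 13 SAP30-KO1-only ones, or 0.637%, where 0.649% of all promoters were. Protein-coding promoters gave 44 and 79. Their mean ranks in the genotype that had them were moderate, with a median of 32.5 (9.60 to 84.98) for the Parental-only genes and 27.3 (14.6 to 66.5) for the others. Of the 27, 4 lie on 11q. In 23 of the 27 and 11 of the 13, the nearest summit in any library of the other genotype was over 5 kb away. With summits of q value 0.0001 or less the counts turned to 15 Parental-only and 22 SAP30-KO1-only, so the direction of this imbalance turned with the q value. Leaving out 1 library widened both counts, to between 32 and 56 and between 15 and 43.

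ENSG00000290078 led the Parental-only genes. It lies on 11q between chr11:110199133-110202138, 31946 bp from the nearest protein-coding start, that of RDX, which encodes the membrane and cytoskeleton linker radixin. Its ranks were 76.2, 91.9 and 86.8 in the parental libraries, with 0 in each SAP30-KO1 library, where the nearest summit was 9301 bp away. RDX itself had ranks of 76.7, 23.4 and 81.2 against 50.6, 57.5 and 23.2, which overlapped. The Parental-only summit of ENSG00000205325 on 17p had ranks of 86.5, 78.5 and 52.5, and lay in an exon 858 bp inside the nearest annotated start. LINC01504 on 9q had ranks of 53.9, 70.3 and 62.5, with the summit 14 bp from its start. ENSG00000176515 on 6p had 51.9, 61.4 and 44.2, and ENSG00000253500 on 8q had 67.1, 53.5 and 20.7. Each of these 5 genes was without a summit in the 3 SAP30-KO1 libraries.

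In the opposite direction FER1L6-AS1, antisense to the ferlin family gene FER1L6 on 8q, had ranks of 66.2, 76.6 and 56.7 in SAP30-KO1, and shared its summit with ENSG00000254249. NAMA, a lncRNA named for an association with the MAP kinase pathway and growth arrest, had ranks of 65.3, 84.2 and 46.4 there. ENSG00000271788 on 5p had 63.9, 50.8 and 46.3, but this gene lies at the edge of the rule, since 2 parental libraries had summits 78 and 89 bp from its best summit and just outside the 1 kb window. MIR9-3HG, the host of one copy of the neural microRNA miR-9, had ranks of 64.8, 44.1 and 15.2, and ENSG00000287763 on 2p had 62.3, 26.7 and 24.2. No parental library had a summit at these 5 promoters within the rule, and the last pair had lower and more variable ranks than the first. None of the 5 best summits lay close to an annotated start. In the order given here they lay at -556, 870, -924, -516 and -528 bp from the nearest one.

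Ranks were compared next. The 3 libraries of one genotype all ranked above the 3 of the other at 121 lncRNA promoters that were lower in SAP30-KO1 (5.93%, where 4.84% of all promoters were) and at 100 that were higher (4.90%, where 5.73% were). A separation of this kind has a two-sided p of 0.1 in an exact permutation test, the smallest that 3 against 3 libraries allow, and the lowest value after Benjamini-Hochberg adjustment over all promoters was 0.947. limma, fitted over 12635 promoters with a summit in at least 2 libraries, called 0 of 1642 lncRNA promoters at an adjusted p of 0.05, where 0.00791% of all promoters were called (1, the promoter of TENM2). At an unadjusted p under 0.05 there were 161 lncRNA promoters (9.81%, where 7.32% of all were), 87 lower and 74 higher in SAP30-KO1. A further fit on the log2 score covered the 7504 lncRNA and protein-coding promoters with a summit in every library. Of the 765 lncRNA promoters among them it called 1, BHLHE40-AS1 (limma, adjusted p = 0.0358). The rank over the same promoters called 0 of the 765. Scores of separately called lists share no scale.

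Among the 765 lncRNA promoters with a summit in every library, 56 were separated and lower in SAP30-KO1 (7.32%, where 5.97% of all such promoters were) and 52 were separated and higher (6.80%, where 6.86% were). The median difference was -0.02 rank units and the middle part of the promoters lay between -8.43 and 7.51, while the median SD between replicates of one genotype was 10.3. For protein-coding promoters the median difference was 0.23. Of the 765, 384 were lower in SAP30-KO1 and 125 differed by more than 20 rank units in either direction.

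**Figure D4:**
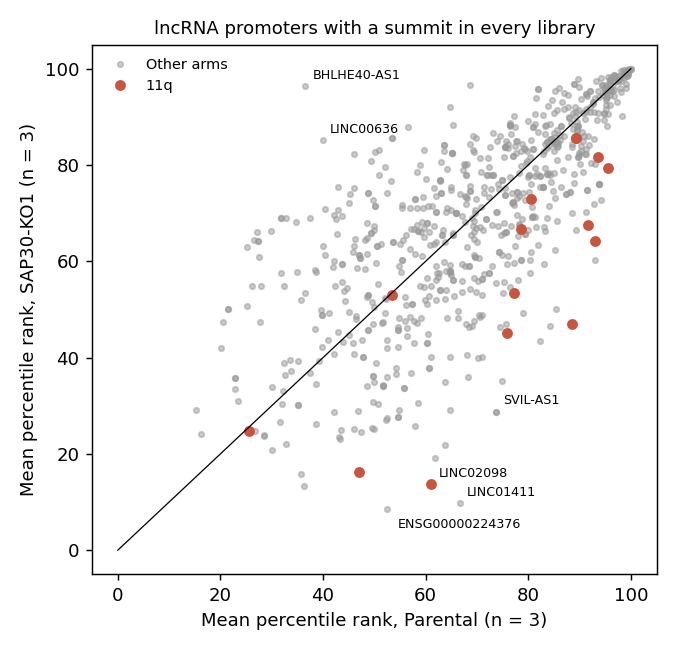
Mean percentile rank in SAP30-KO1 against parental libraries (n = 3 each) for the 765 lncRNA promoters with a summit in every library, with the 15 promoters on 11q in red and the line of equality drawn. The cloud is centred on the line, with a median difference of -0.02, and the 11q promoters lie below it.

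BHLHE40-AS1 had the largest separated difference towards SAP30-KO1 among promoters with a summit in every library. The gene is antisense RNA transcribed next to BHLHE40, a basic helix-loop-helix repressor of the circadian and hypoxia responses. Its summit lay 86 bp inside an annotated transcript start at position 4948154, in an exon and 73054 bp from the BHLHE40 start. This start is an internal one, because the gene, on the minus strand, runs from 5022099 to 4938490. Ranks were 56.6, 2.33 and 50.7 in the parental libraries against 92.9, 97.1 and 99.0 in SAP30-KO1, a difference of 59.81 ± 15.2 (SE; limma, adjusted p = 0.491 on ranks). The corresponding scores were 6.27, 2.43 and 5.61 against 14.1, 22.2 and 25.3. The BHLHE40 promoter ranked 92.5, 63.7 and 96.6 against 91.9, 94.9 and 93.7, and overlapped.

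LINC00636, 126945 bp from the start of CD47, ranked 61.0, 45.9 and 12.8 against 85.6, 77.6 and 92.2. ENSG00000289108 on 7q, 125966 bp from the start of ZNF92, ranked 37.2, 8.54 and 34.1 against 42.5, 77.7 and 73.0. The shared summit of ENSG00000272426 and ENSG00000290122, in an intron of CROCC, ranked 14.7, 33.4 and 47.4 against 62.1, 67.2 and 77.8. In each case the lowest SAP30-KO1 library was above the highest parental one, with the smallest gap at ENSG00000289108.

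In the other direction LINC01411, on 5q and 220569 bp from the start of MSX2, ranked 75.6, 78.6 and 45.6 in the parental libraries against 13.3, 10.1 and 5.89 in SAP30-KO1, a difference of -56.88 ± 10.1 (SE; limma, adjusted p = 0.279). LINC02098 on 11q, 255772 bp from ETS1, ranked 65.8, 52.3 and 65.2 against 7.80, 24.4 and 8.83. The ETS1 promoter, of a transcription factor of the ETS family, was separated in the same direction at 99.2, 97.8 and 99.3 against 92.3, 95.2 and 90.5. SVIL-AS1 and ENSG00000287402, a divergent pair on 10p, ranked 74.0, 87.4 and 59.8 against 41.1, 10.4 and 34.9. ENSG00000224376 on 2q ranked 63.8, 48.2 and 45.1 against 13.01, 6.18 and 6.15. These lncRNA promoters were chosen among those with a summit in every library, and their SAP30-KO1 ranks ran from 5.89 to 41.1.

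**Figure D5:**
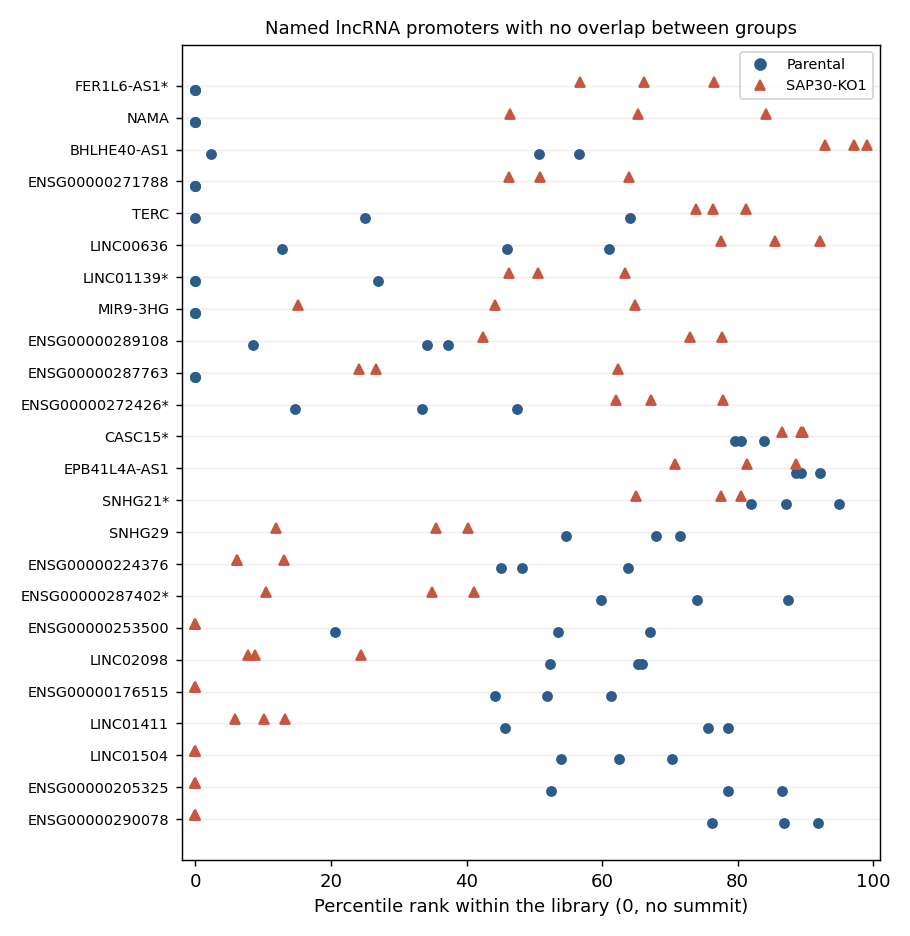
Percentile rank in each library at named lncRNA promoters whose genotypes did not overlap, with parental libraries as circles and SAP30-KO1 libraries as triangles, and 0 for no summit. An asterisk marks a summit shared with another lncRNA gene, and genes are ordered by the mean difference, from ENSG00000290078 (-84.98) to FER1L6-AS1 (66.48).

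Chromosome arm 11q stood apart in its number of separated promoters. Of its 64 lncRNA promoters, 14 were separated and lower in SAP30-KO1 and 0 were separated and higher, against 107 and 100 of the 1978 on the other arms. The 15 with a summit in every library were all lower in SAP30-KO1, with a median difference of -16.23, against 0.05 for the 750 on other arms. On 11p the 16 such promoters had a median difference of -15.71, close to that of 11q. Of all 41 lncRNA promoters of 11p, 1 was separated and lower and 1 was separated and higher. Protein-coding promoters of 11q had a median difference of -12.51, with 108 of 486 separated and lower. Ranked only among the summits of its own arm, the median of the 11q lncRNA promoters was -8.60, and 10 were separated and lower. The lower ranks on 11q were known from earlier results on these data, and the part of DNA copy number in them was not tested. LINC02098 lies on this arm and remained separated when ranked within it, with a difference of -40.88. ENSG00000290078 lies there too, with a within-arm difference of -79.92. Its SAP30-KO1 ranks are 0 under either ranking, so ranking within the arm could not undo its separation.

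Separated lncRNA promoters were compared with their protein-coding neighbours. A neighbour shared by several lncRNA genes was counted once for each of them. Of the 121 that were lower, 90 had a nearest protein-coding gene with a promoter summit. For 13 of the 90 (14.4%) that promoter was separated and lower too, where 4.66% of all protein-coding promoters were. Without 11q the values were 9 of 79 (11.4%) and 3.92%. Of the 100 that were higher, 70 had such a neighbour, and for 8 of the 70 (11.4%) it was also separated and higher, where 5.87% of all were.

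Lists of known lncRNAs were followed by their roles. Small RNA host genes release small nucleolar RNAs or microRNAs from their introns or transcripts. Of 53 annotated hosts, 26 were in the set, 11 had a summit only near a protein-coding start (among them GAS5, SNHG1 and ZFAS1) and 16 had none. Of the 26, 15 had a summit in every library. Separated and lower in SAP30-KO1 were 3, where 4.84% of all promoters were, and 1 was separated and higher, where 5.73% were. The median difference was -4.46, against -0.47 for all lncRNA promoters and 0.43 for all promoters tested. SNHG29 ranked 71.5, 54.6 and 68.0 in the parental libraries against 40.2, 35.4 and 11.9 in SAP30-KO1, a difference of -35.53 ± 9.63 (SE; limma, adjusted p = 0.491). EPB41L4A-AS1, which hosts a small nucleolar RNA, ranked 88.7, 92.1 and 89.3 against 88.5, 81.4 and 70.8, with the nearest libraries almost equal. SNHG21 ranked 82.0, 95.0 and 87.1 against 80.5, 65.0 and 77.6, and no longer separated when ranked within its arm. MIR9-3HG, described above, was the gene that was higher.

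The other hosts overlapped between the genotypes when ranked in the whole library. Ranked within their own arms, MIRLET7A1HG and SNHG25 were separated and higher in SAP30-KO1, with differences of 2.31 and 48.78, and the difference of MIR100HG turned from -7.64 to 2.69. MIR17HG, host of the oncogenic miR-17-92 cluster, ranked 86.6, 74.8 and 90.8 against 59.5, 65.2 and 89.6. MIR100HG on 11q, host of miR-100, let-7a-2 and miR-125b-1, ranked 72.2, 82.5 and 86.9 against 83.6, 64.3 and 70.7. DANCR, which restrains differentiation of progenitor cells, ranked 91.9, 93.1 and 88.9 against 92.5, 96.7 and 95.1, and MIRLET7A1HG, a host of let-7 microRNAs, 88.0, 87.6 and 90.8 against 90.3, 89.7 and 92.3. MIR181A1HG ranged from 77.3 to 91.6 and MIR99AHG from 19.1 to 67.4 over the 6 libraries. SNHG15 ranged from 63.9 to 95.6, SNHG8 from 39.5 to 90.3 and MIR3142HG from 56.2 to 94.4. SNHG25 ranked 49.98, 10.8 and 0 against 54.0, 90.3 and 49.2, so the highest parental library was just above the lowest SAP30-KO1 library. SNHG11 had a summit in 2 parental libraries, at 65.5 and 18.7, and in no SAP30-KO1 library. MIR29B2CHG, host of miR-29 copies, ranged from 61.8 to 93.7. MIR9-1HG, host of another miR-9 copy, ranked 38.4, 0 and 59.5 against 74.8, 50.7 and 61.6. SNHG30, SNHG17 and MIR9-1HG had a summit in 5 libraries, SNHG26, SNHG12 and SNHG16 in 4, and SNHG6 and MIR193BHG in 3, with each set of ranks overlapping. SNHG16, a host with a role in cell proliferation, ranked 49.98, 0 and 0 against 0.818, 1.83 and 1.99.

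Nuclear and abundant lncRNAs gave 9 genes of 16 annotated, of which 4 had a summit in every library and 1, TERC, was separated and higher in SAP30-KO1, where 5.73% of all promoters were, with a median difference of -2.99. TERC is the RNA template of telomerase. It ranked 25.01, 0 and 64.1 in the parental libraries against 76.4, 73.9 and 81.3 in SAP30-KO1, a difference of 47.50 ± 16.4 (SE; limma, adjusted p = 0.598), and the parental library at 0 had its nearest summit 1790 bp away. CHASERR, which lies upstream of the chromatin remodeller gene CHD2 and limits its expression, ranked 96.1, 92.9 and 96.1 against 91.5, 96.2 and 97.5. LINC-PINT, a p53-induced transcript, ranked 49.98, 59.3 and 71.3 against 24.1, 42.3 and 86.9. KCNQ1OT1, the imprinted antisense RNA that silences genes around KCNQ1, ranked 60.8, 70.2 and 11.1 against 27.3, 29.2 and 17.1. MALAT1, an abundant RNA of nuclear speckles, ranked 0, 0 and 42.7 against 30.5, 5.32 and 21.3, with a summit in 4 libraries and in the lower part of each list. DLEU1 ranked 89.5, 80.8 and 57.3 against 43.99, 65.6 and 68.5, DLEU2 had a summit in 4 libraries, and MIAT and NORAD in 1 each. CYTOR, H19, NEAT1 and MEG3 had no summit within 1 kb.

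Of 46 annotated lncRNAs linked to breast cancer or metastasis, 16 were in the set, 8 with a summit in every library, and 2 were separated, both higher in SAP30-KO1, where 5.73% of all promoters were, with a median difference of -0.17. CASC15, at the shared promoter with NBAT1 on 6p, ranked 83.9, 79.6 and 80.5 against 89.7, 86.5 and 89.3, a small difference of 7.18 that was wider than the spread. LINC01139, which shares its summit with ENSG00000231877, ranked 27.0, 0 and 0 against 50.6, 63.4 and 46.3. PVT1, beside MYC on 8q, was near the top in every library, at 98.0, 99.7 and 99.5 against 97.9, 98.1 and 99.2. LINC00472 ranked 99.8, 90.3 and 99.0 against 92.3, 98.9 and 94.7, LINC00511 93.3, 92.8 and 95.6 against 96.2, 91.7 and 94.7, and LUCAT1 90.9, 95.1 and 85.5 against 84.5, 88.8 and 87.1. LINC00460 ranged from 59.4 to 88.4, and LINC01503 from 20.2 to 68.5. PRNCR1 on 8q ranked 0, 94.4 and 89.9 against 77.0, 90.9 and 0, so that strong summits and missing ones stood side by side in each genotype. The same gene had its best summit 983 bp from the start, at the edge of the window. ROR1-AS1, antisense to the receptor tyrosine kinase gene ROR1, ranked 36.5, 0 and 76.7 against 45.6, 22.8 and 11.9. HULC, LINC00973 and SOX2-OT had a summit in 2 libraries and LINC01638 in 3. HOTAIR, UCA1, BCAR4 and LINC-ROR were among the 21 with no summit within 1 kb.

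The remaining lists had no separated member. Of 12 annotated p53 targets 4 were in the set (PVT1, LINC-PINT, PURPL and NORAD), with a median difference of -6.05, and PURPL ranked 58.2, 61.6 and 16.2 against 9.69, 43.5 and 0. Of 16 annotated hypoxia-induced lncRNAs 7 were in the set, with a median difference of -18.15. Among them MIR210HG, host of the hypoxia microRNA miR-210, ranked 70.5, 70.8 and 64.1 against 56.5, 66.7 and 15.9, and the groups overlapped. HIF1A-AS3 ranked 73.2, 55.5 and 92.3 against 49.6, 78.3 and 38.6, and FALEC 70.5, 57.1 and 83.3 against 13.3, 76.2 and 30.5. LINC00649 had a summit in 3 libraries, at 66.4 and 33.2 in parental and 13.1 in SAP30-KO1, and LINC01116 in 1 library of each genotype. Of 37 annotated antisense RNAs of developmental loci, 2 were in the set, 10 had a summit only near a protein-coding start and 25 had none, among them most antisense RNAs of the HOX clusters. PAX8-AS1 ranked 64.5, 64.3 and 34.1 against 11.1, 50.3 and 48.5, and SOX2-OT had a summit in 1 library of each genotype, at 80.0 and 33.5.

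The genes differed in how well they are known. Of the 2042, 1191 (58.3%) have no symbol, 439 have a LINC symbol, 174 an antisense symbol and 38 a small RNA host symbol. A summit was present in every library at 35.5% of the genes without a symbol, 38.7% of the LINC genes, 35.6% of the antisense genes and 42.1% of the small RNA hosts. The arms with the most members were 1q (112), 1p (106) and 5q (95). Of the Parental-only and SAP30-KO1-only genes 18 of 27 and 6 of 13 have no symbol. Most best summits, 1666 (81.6%), lay outside protein-coding genes, 275 in the antisense orientation within one and 94 in the sense orientation.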

How the data were processed

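Chromatin accessibility was measured by ATAC-seq in 3 parental and 3 SAP30-KO1 libraries of MDA-MB-231 cells, grouped by their labels. The authors trimmed single-end reads with Trim Galore 0.4.5, aligned them to hg19 with Bowtie2 2.3.3.1, took out duplicates (Picard) and then called peaks in MACS2 2.1.0 with a q value of 0.05 (versions from the submitters' processing notes). The deposited lists hold 1 summit per peak and library, each with a score, its −log10 q value. They hold no read counts, so depth is unknown. Removal of blacklisted regions and the shift of reads for the transposase are not given in the sources used here. Nothing says that the libraries of a genotype came from separate cultures, so p-values measure only the spread between these libraries.

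Scores of separately called lists share no scale, and each was turned into a percentile rank within its list (0 to 100, ties averaged, 0 for no summit). Annotation was GENCODE release 44 mapped to GRCh37, with every annotated transcript start used. The start nearest a summit can thus lie inside the gene, far from its 5′ end, as at BHLHE40-AS1, LINC01411, PVT1 and DLEU1. Ranks were tested with limma 3.58.1 in R 4.3.3 over all promoters with a summit in at least 2 libraries, with Benjamini-Hochberg adjustment, and with an exact two-sided permutation test per promoter over the 20 assignments of the libraries. The scripts were tested on simulated data. Sequences are from GRCh37, and each chromosome was split into arms at its largest gap in the assembly. Named genes were the 10 with the highest mean rank, the 5 highest in each direction present in 1 genotype only, the 5 largest separated differences in each direction with a summit in every library, genes called by limma and members of 6 lists. The members and lists were chosen with earlier results of these data known. The replicate numbers did not pair the libraries.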

Additional observations from a re-analysis of the deposited data

How the results depend on the processing

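Stricter q values, equal list lengths, a 500 bp window, a 5 kb distance from protein-coding starts, 5′ gene ends only, leaving out 11q and leaving out each library were tried. The difference in lncRNA genes per library was of either sign, from -125 without SAP30-KO1 replicate 2 to 60.7 without SAP30-KO1 replicate 1. The lower share of summits at lncRNA promoters in SAP30-KO1 had the same direction and no overlap under each alternative, from -0.254 to -0.134 percentage points with 1 library left out and -0.284 with summits limited to q values up to 0.0001. With this limit Parental-only promoters fell to 15 and SAP30-KO1-only ones numbered 22, and with equal list lengths the latter numbered 7. Shares over all promoters were not taken under the alternatives, so counts given here have no background beside them. With 1 library left out, Parental-only promoters numbered 32 to 56 and SAP30-KO1-only ones 15 to 43, separated ones 146 to 231 (lower) and 130 to 236 (higher), since fewer libraries have to agree. The most Parental-only promoters came without Parental replicate 3 and the most SAP30-KO1-only ones without SAP30-KO1 replicate 1. The median rank difference ranged from -1.73 to 1.43, of either sign. limma called 0 lncRNA promoters under each rank alternative, at a lowest adjusted p from 0.0593 to 0.742, and 1 on the log2 score of promoters with a summit in every library. With the replicate block it called 0, with 147 at an unadjusted p under 0.05. Same-numbered libraries did not deviate together (correlations of -0.0178, -0.0328 and 0.00954). Named genes were followed only with 1 library left out and when ranked within their arms. Leaving out 1 library cannot reverse a separated gene. Ranked within its arm, no separated named gene changed direction. With no depth known and 3 libraries a genotype, a missing summit cannot be told apart from one under the threshold.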
